A study of Homo sapiens with 10 samples.

Results

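The 10 genes described here encode the tropomyosins (TPM1, TPM2, TPM3, TPM4), caldesmon (CALD1), the transgelins (TAGLN, TAGLN2) and the calponins (CNN1, CNN2, CNN3). They were taken by name from the deposited table of 62656 genes, and all 10 were found there. Each was measured by RNA sequencing in PC3 cells, an established human prostate cancer line derived from a bone metastasis. The cells were kept without serum overnight and then treated for 24 h in RPMI-1640 medium with 1 µM GW3965, a synthetic agonist of the liver X receptors (LXR), or with its solvent DMSO, with 5 libraries in each group. The comparison asks how LXR activation changed expression in this single cell line.

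Tropomyosins are coiled-coil proteins that lie head to tail along the actin filament and decide which myosins and severing proteins can reach it. Caldesmon and the calponins bind actin together with calmodulin and restrain the myosin ATPase, and the transgelins are small calponin-like proteins that cross-link actin. In smooth muscle, TPM1, TPM2, TAGLN, CNN1 and the long form of caldesmon belong to the contractile set, whereas TPM3, TPM4, TAGLN2, CNN2, CNN3 and the short form of caldesmon are widespread in other cells. Several of these genes are known targets of serum response factor (SRF), which binds the CArG box.

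The 4 tropomyosin genes descend from a common ancestor, and their coding sequences remain alike, which matters for short reads. The first 60 coding bases of the long transcripts of TPM4, TPM1 and TPM2 are printed here 5′ to 3′ from GENCODE 29 (GRCh38), because they are the most alike stretch that lies in 1 exon of each of these 3 genes. Capitals mark bases that differ from TPM4.
TPM4 (chr19:16067625-16067684, plus strand): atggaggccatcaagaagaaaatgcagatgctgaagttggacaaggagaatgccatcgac
TPM1 (chr15:63042830-63042889, plus strand): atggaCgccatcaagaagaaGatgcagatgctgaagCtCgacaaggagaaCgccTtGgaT
TPM2 (chr9:35689758-35689817, minus strand): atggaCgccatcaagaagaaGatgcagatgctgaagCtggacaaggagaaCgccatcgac
Even here TPM2 differed from TPM4 at 4 bases and TPM1 at 8. Over the 852 coding bases compared in all 4 genes, TPM2 and TPM4 were the most alike at 78.8% identity, and TPM1 and TPM3 the least at 71.9%. The longest identical run between any pair was 38 bases, in TPM1 and TPM2. No stretch of 50 bases, the length of the reads, was shared between any of the 10 members.

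Some members do share 50-base stretches with other genes. Of the 50-base windows in its transcripts, TPM4 shared 14.5%, TPM1 19.96%, TAGLN 9.63%, CNN2 8.51%, TAGLN2 5.84%, TPM3 3.27% and CNN1 0.45% with another annotated gene, whereas TPM2, CALD1 and CNN3 shared none. For TPM1, TPM4, TAGLN and CNN2 a gene on the opposite strand covers part of the exons. Whether reads were counted by strand is not given in the sources used here, so reads from a gene and its opposite-strand partner may not have been told apart. The counting of reads that fit a processed pseudogene equally well is also not stated. The values of these members therefore carry this uncertainty, and the reads assigned to the pseudogenes are given beside the results.

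GENCODE 29 places TPM1 at chr15:63042632-63071915 on the plus strand, TPM2 at chr9:35681992-35690121 on the minus strand, TPM3 at chr1:154155304-154194648 on the minus strand and TPM4 at chr19:16067021-16103005 on the plus strand. CALD1 spans chr7:134744252-134970728 on the plus strand, TAGLN chr11:117199321-117204782 on the plus strand and TAGLN2 chr1:159918107-159925732 on the minus strand. CNN1 lies at chr19:11538717-11550323 and CNN2 at chr19:1026581-1039068, both on the plus strand, and CNN3 at chr1:94896949-94927278 on the minus strand. All are protein coding, and the values sum the reads over all transcripts of a gene. The long and short forms of caldesmon and the muscle and non-muscle forms of TPM1 were therefore not separated.

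Of the 10 libraries, which held between 30429384 and 41636379 reads, 3 stood apart: DMSO 1, GW3965 1 and GW3965 2. On the first principal component of 14372 well-read genes, which took 41.4% of their variance, they lay between 17.7 and 19.7, and the other 7 libraries lay at 3.91 or lower. The labels name no batch. Several members moved with the split of DMSO 1, GW3965 1 and GW3965 2, and each such result is given with and without them. As a check of the treatment label, ABCA1, a cholesterol exporter and classical LXR target, rose with a log2 fold change of 2.29 (SE 0.20, adjusted p = 0.00063, limma).

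PC3 cells carried more RNA of TAGLN2, CNN3, CNN2, TPM3 and TPM4 than of TPM2, TPM1, TAGLN and CNN1, with CALD1 between them. These values are per gene and do not separate muscle from non-muscle forms of a gene. TAGLN2 was by far the most abundant at 153 ± 16.6 RPKM (reads per kilobase of gene, scaled for library depth, SD, n = 10), a level exceeded by 0.48% of all genes in the table. CNN3 at 19.0 ± 2.75, CNN2 at 18.6 ± 1.603, TPM3 at 15.02 ± 1.98 and TPM4 at 10.9 ± 1.30 RPKM followed, and in this order each overlapped the next over the libraries. CALD1 lay below them at 4.27 ± 0.68 RPKM, then TPM2 at 1.77 ± 0.18, TPM1 at 1.17 ± 0.088, TAGLN at 0.389 ± 0.053 and CNN1 at 0.111 ± 0.044 RPKM, and none of these overlapped its neighbors in the order.

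**Figure D1:**
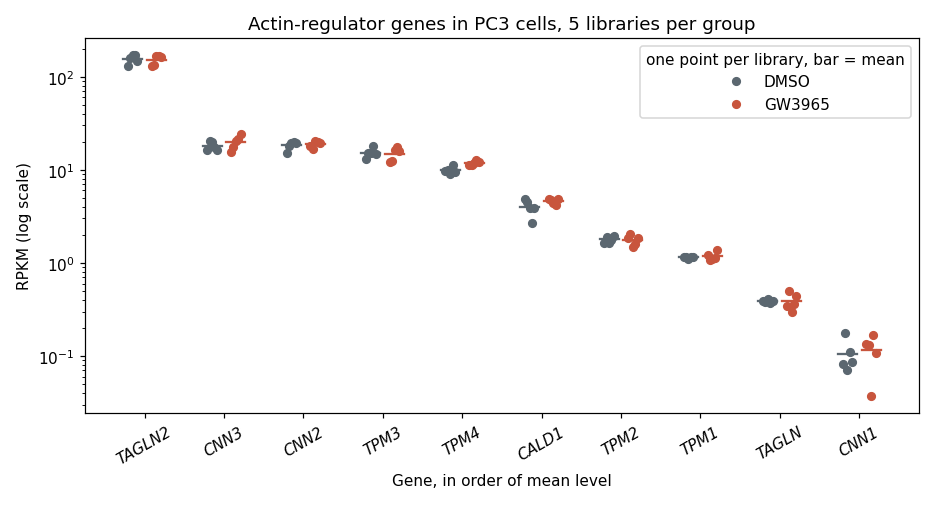
RPKM of each member on a log axis, with 1 point per library, DMSO in gray, GW3965 in red and the group mean as a bar. TAGLN2 stands above the rest at 129 to 171 RPKM, CNN1 lies at the bottom at 0.037 to 0.175, and the groups overlap for every member except TPM4.

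This order depends in part on the gene lengths behind the RPKM values. The lengths implied by the table exceed the merged exon lengths of GENCODE 29 for TPM3 (15130 against 8389 bases), TPM4 (12375 against 8632) and TAGLN (6550 against 3917). For TPM1 the excess was smaller (13765 against 12876). With the GENCODE 29 lengths, TPM3 came to 27.1 RPKM, above CNN3 and CNN2 at 18.6 each, and TPM4 came to 15.6 RPKM. TAGLN came to 0.650 RPKM in place of 0.389, above the mean of 0.5 RPKM asked for in the test. TPM1 had more reads per library than TPM2, 461 to 673 against 159 to 262. Its lower RPKM rests on a length of 13765 bases against 3183 for TPM2.

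The low levels of TAGLN and CNN1 rest on few reads, between 74 and 130 per library for TAGLN and between 4 and 21 for CNN1. Most other smooth muscle markers were as low. MYOCD, the coactivator that switches on the contractile set, averaged 0.000744 RPKM in DMSO and was listed at 0 in all GW3965 libraries, and DES (desmin) averaged 0.036 and 0.027 RPKM. The 7 smooth muscle markers summed to 12.9 to 16.1 RPKM in DMSO and 12.7 to 16.2 in GW3965, nearly all of it from SMTN and SYNM. The 7 fibroblast markers summed to 3.26 to 5.98 RPKM in DMSO and 3.003 to 5.98 in GW3965. Most of this came from COL3A1, which averaged 3.47 RPKM over all libraries, and COL1A1 at 0.928, with COL1A2 and DCN at or near 0. The 5 epithelial markers summed to 197 to 252.5 RPKM and 219 to 263 RPKM, led by KRT19, while CDH1 (E-cadherin) was low throughout, at 0.462 to 0.518 RPKM in the 3 libraries that stood apart and 0.152 to 0.261 in the other 7.

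With limma, no member passed the threshold of adjusted p under 0.05 between GW3965 and DMSO. There were 8 members with a mean of at least 0.5 RPKM, which entered the limma test, and 0 of these 8 passed, against a background of 0.157% (32 of 20402 genes). At an unadjusted p under 0.05 it was 1 of 8, TPM4, with limma on log2 RPKM and again with limma voom on the recovered reads, where the backgrounds were 6.99% and 6.68%. With voom 0 of 8 passed after adjustment too, against 0.309%. Of the 8, 5 had a fold change above 0, against 51.1% of all tested genes, and their median log2 fold change was 0.033, against 0.0034 for all tested genes. Scaled by total RPKM instead, all 8 were above 0 with a median of 0.17, but so were 82.5% of all tested genes, whose median moved to 0.14.

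**Figure D2:**
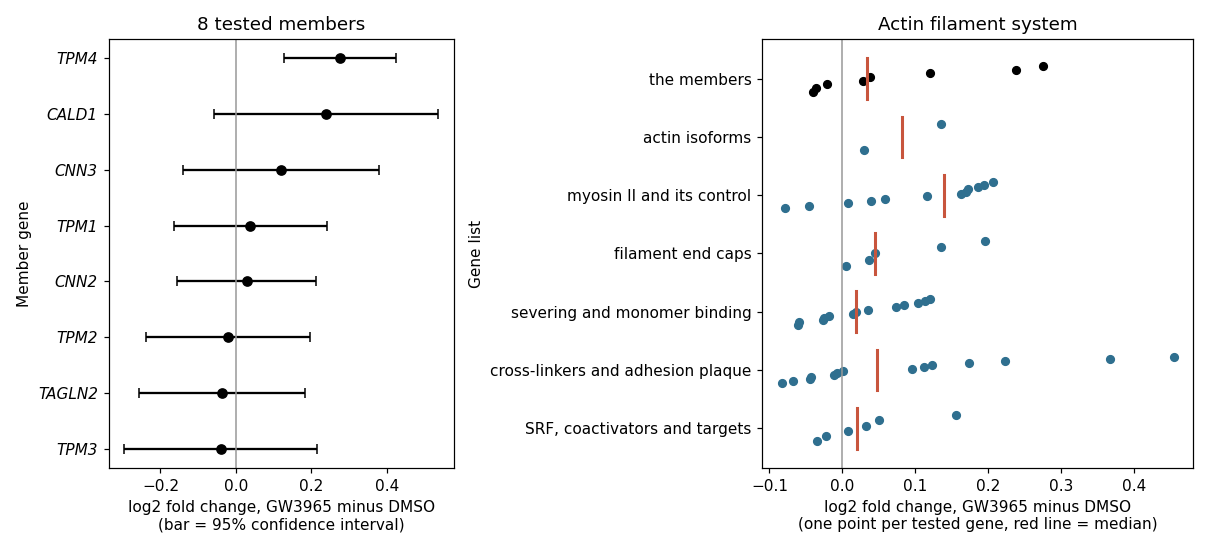
Log2 fold change, GW3965 minus DMSO, on the log2(RPKM + 0.1) scale. Left, the 8 tested members with 95% confidence intervals, of which that of TPM4 (0.13 to 0.42) does not include 0. Right, each tested gene of the actin filament system by list, with the list median as a red line, which is highest for myosin II and its control (0.14) and lowest for severing and monomer binding (0.019).

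TPM4, a tropomyosin of non-muscle stress fibers and motile cells, showed the clearest difference of the 10. It measured 9.69, 9.87, 8.91, 11.2 and 9.55 RPKM in DMSO libraries 1 to 5, and 11.3, 11.3, 11.9, 12.8 and 12.2 RPKM in GW3965 libraries 1 to 5. The GW3965 libraries all lay above the DMSO libraries, with DMSO 4 the nearest at 11.2 against 11.3. Of the 8 tested members, TPM4 alone had groups that did not overlap, against a background of 1.84% of all tested genes in either direction and 1.35% with GW3965 higher. The log2 fold change was 0.28 (SE 0.067, 95% interval 0.13 to 0.42), or 1.21-fold. Its unadjusted p of 0.00182 ranked 164 among all tested genes, and the adjusted p was 0.227 (limma), so the difference did not pass with this test. In bulk RNA, a change in every cell and a change in some of the cells cannot be told apart.

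TPM4 had between 3337 and 5612 reads per library, and its spread within the groups was a coefficient of variation of 7.12%, against 1.46% from counting alone. The 3 libraries that were apart on the first component of the reads were then left out. The range was 8.91 to 11.2 RPKM in DMSO and 11.9 to 12.8 in GW3965 without them. The log2 fold change was 0.32 with an adjusted p of 0.279 (limma). With that component entered as a covariate, an alternative chosen after seeing the data, TPM4 passed the threshold with a log2 fold change of 0.29 and an adjusted p of 0.0419 (limma). This was the only 1 of 23 alternatives in which a member passed, and over all of them the adjusted p ran from 0.0419 to 0.867.

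A processed pseudogene of TPM4, AF201337.1, shares 203 windows of 50 bases with TPM4 and had 5.33 to 6.03 reads per 100 TPM4 reads in DMSO and 5.85 to 6.60 in GW3965. It had 7.86 to 10.7 RPKM in DMSO and 10.9 to 13.3 RPKM in GW3965, again without overlap, and a log2 fold change of 0.39 (SE 0.085, adjusted p = 0.162, limma). By Pearson's r it was among the 3 tested genes closest to TPM4 over the 10 libraries (r = 0.974, Spearman's rho = 0.952), with HADHAP2 (r = 0.974, rho = 0.915) and B3GNT3 (r = 0.974, rho = 0.976). Reads of TPM4 and AF201337.1 cannot be told apart in the shared windows. Another processed pseudogene, AC098614.1, shares 501 windows with TPM4 but is not among the genes with deposited values, so its reads could not be given. The opposite-strand gene AC008894.3 covers 829 exon bases of TPM4 and was assigned 23 to 54 reads per library, and its part in the values was not tested.

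**Figure D3:**
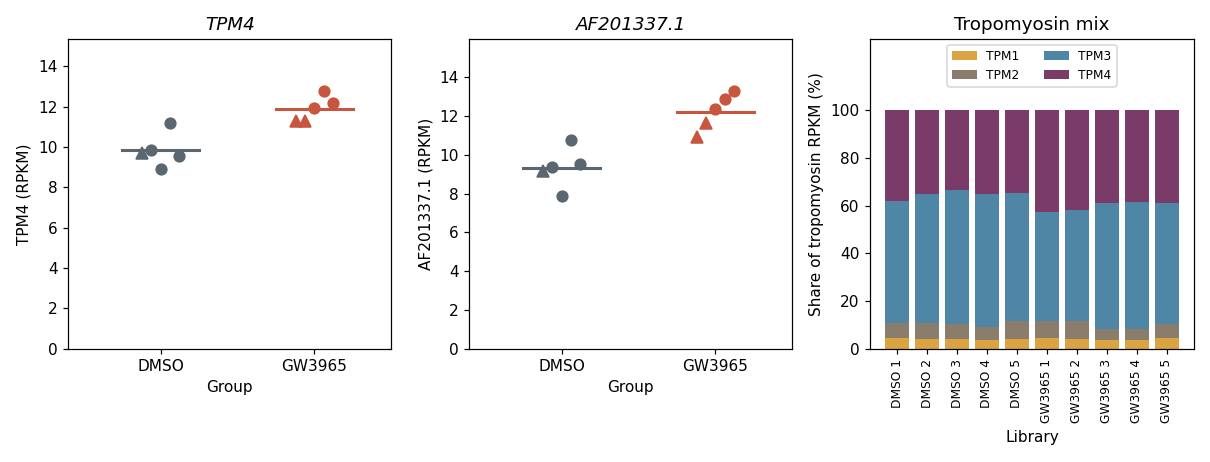
Left and middle, RPKM of TPM4 and of its processed pseudogene AF201337.1 by group, 1 point per library, with the mean as a bar and the 3 libraries that stood apart as triangles. In both, all GW3965 libraries lie above all DMSO libraries. Right, the share of each gene in the tropomyosin RPKM of each library, where TPM4 takes 33.3 to 37.9% in DMSO and 38.6 to 42.6% in GW3965.

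The values of the other tropomyosins overlapped between the groups. TPM3, a widespread non-muscle tropomyosin that also has a slow-muscle form, measured 13.1, 15.1, 15.1, 17.9 and 14.8 RPKM in DMSO 1 to 5 and 12.2, 12.5, 16.1, 17.6 and 15.9 RPKM in GW3965 1 to 5. The groups overlapped fully, and the log2 fold change was -0.04 (95% interval -0.30 to 0.21, adjusted p = 0.979, limma). The 3 libraries that stood apart held 12.2 to 13.1 RPKM, below all of the other 7 at 14.8 to 17.9. Without them the log2 fold change was 0.08. The processed pseudogenes of TPM3 with at least 25 shared windows were AC243960.2, AC026462.1, TPM3P8 and AC103988.1, and AC243960.2 had the most reads, at 9.14 per 100 TPM3 reads.

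TPM1 and TPM2, known as tropomyosins of striated and smooth muscle, were low in both groups, with all forms of each gene summed. TPM1 ran from 1.11 to 1.17 RPKM in DMSO and from 1.07 to 1.39 in GW3965, with the highest value in GW3965 5, and its log2 fold change was 0.04 (95% interval -0.17 to 0.24, adjusted p = 0.974, limma). Its opposite-strand partner TPM1-AS was assigned at most 4 reads in any library. TPM2 ran from 1.64 to 1.97 and from 1.48 to 2.06 RPKM, with a log2 fold change of -0.02 (95% interval -0.24 to 0.19, adjusted p = 0.987, limma). Without the 3 libraries that stood apart, TPM2 held 1.65 to 1.97 RPKM in DMSO and 1.48 to 1.83 in GW3965, which still overlapped, and its log2 fold change was -0.14 (adjusted p = 0.732, limma).

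Summed over the 4 genes, tropomyosin came to 28.0 ± 2.45 RPKM in DMSO and 29.7 ± 2.88 in GW3965 (SD, n = 5 each), ranges that overlapped. Within that sum, TPM4 took 35.2% of it on average in DMSO and 40.2% in GW3965, without overlap between the groups, while TPM3 took 51.2 to 56.4% and 45.9 to 53.1%. With the GENCODE 29 lengths, the mean share of TPM4 was 31.8% in DMSO and 36.6% in GW3965, and that of TPM3 was 61.5% and 56.9%. TPM3 exceeded TPM4 by 1.35 to 1.69 times in DMSO and by 1.08 to 1.37 times in GW3965, so that the groups overlapped, the lowest DMSO value being that of DMSO 1. Among the 7 other libraries the ratio was 1.53 to 1.69 in DMSO and 1.30 to 1.37 in GW3965. These shares and ratios were computed after TPM4 had been seen to differ, and they carry no test. The libraries left out were picked from these same data, in which TPM3 itself moved with the split.

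Caldesmon, which binds actin, tropomyosin, myosin and calmodulin at once, had the next largest fold change and, of the tested members, the widest spread within the groups (coefficient of variation 15.4%). CALD1 measured 4.80, 4.48, 3.89, 2.67 and 3.91 RPKM in DMSO 1 to 5 and 4.90, 4.77, 4.35, 4.17 and 4.81 RPKM in GW3965 1 to 5. DMSO 4 lay well below every other library, and the groups overlapped. The log2 fold change was 0.24 (SE 0.13, 95% interval -0.06 to 0.54, adjusted p = 0.804, limma), and without DMSO 4 it was 0.11. The 3 libraries that stood apart held 4.77 to 4.90 RPKM, at the top of the range of the other 7 (2.67 to 4.81), the reverse of TPM3. Without them the log2 fold change was 0.27 (adjusted p = 0.653, limma).

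The transgelins consisted almost entirely of TAGLN2, the form of non-muscle cells, which took at least 99.6% of their RPKM in every library. TAGLN2 measured 129, 157, 170, 171 and 149 RPKM in DMSO 1 to 5 and 132, 133, 166, 165 and 161 RPKM in GW3965 1 to 5. The groups overlapped, with a log2 fold change of -0.04 (95% interval -0.26 to 0.18, adjusted p = 0.977, limma). As for TPM3, the 3 libraries that stood apart were the lowest, at 129 to 133 RPKM against 149 to 171, and without them the log2 fold change was 0.02. The pseudogene TAGLN2P1 had 13.6 reads per 100 TAGLN2 reads, with 13.2 to 14.2 in DMSO and 13.2 to 14.3 in GW3965, so that this proportion was nearly the same in all libraries.

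TAGLN, also called SM22 alpha and a common marker of smooth muscle and of mesenchymal change, ran from 0.373 to 0.408 RPKM in DMSO and from 0.298 to 0.497 in GW3965. Its mean was 0.390 in DMSO and 0.388 in GW3965 (two-sided exact permutation test, p = 0.968). The GW3965 libraries were more scattered, with GW3965 2 the highest and GW3965 3 the lowest of all 10. The opposite-strand gene PCSK7 covers 446 exon bases of TAGLN and was itself assigned 830 to 1149 reads per library, and its part in these values was not tested. TAGLN3, the third transgelin, averaged 0.042 and 0.067 RPKM.

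The calponins consisted of CNN2 and CNN3 in nearly equal parts, with CNN1 below 0.5% of their RPKM. CNN3, the acidic calponin of non-muscle cells, measured 16.1, 20.6, 19.96, 17.6 and 16.3 RPKM in DMSO 1 to 5 and 15.7, 17.4, 20.5, 21.4 and 24.1 RPKM in GW3965 1 to 5. The groups overlapped, and both the lowest and the highest library were GW3965 libraries. The log2 fold change was 0.12 (SE 0.12, 95% interval -0.14 to 0.38, adjusted p = 0.918, limma). Without the 3 libraries that stood apart, DMSO held 16.3 to 20.6 RPKM and GW3965 20.5 to 24.1, which still overlapped, and the log2 fold change was 0.24 (adjusted p = 0.458, limma).

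CNN2, the neutral calponin found in many cell types and responsive to mechanical tension, measured 15.3, 18.1, 19.5, 19.7 and 19.6 RPKM in DMSO 1 to 5 and 17.8, 16.6, 20.2, 19.6 and 19.4 RPKM in GW3965 1 to 5. The 3 libraries that stood apart were again the lowest, at 15.3 to 17.8 RPKM against 18.1 to 20.2. The log2 fold change was 0.03 (95% interval -0.16 to 0.21, adjusted p = 0.979, limma), and without them 0.04. CNN1, the basic calponin of smooth muscle, had 0.105 ± 0.042 RPKM in DMSO and 0.116 ± 0.049 in GW3965 (SD, n = 5 each), and the two-sided exact permutation test gave p = 0.698. At 4 to 21 reads per library, a difference of this size was not detectable for CNN1.

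**Figure D4:**
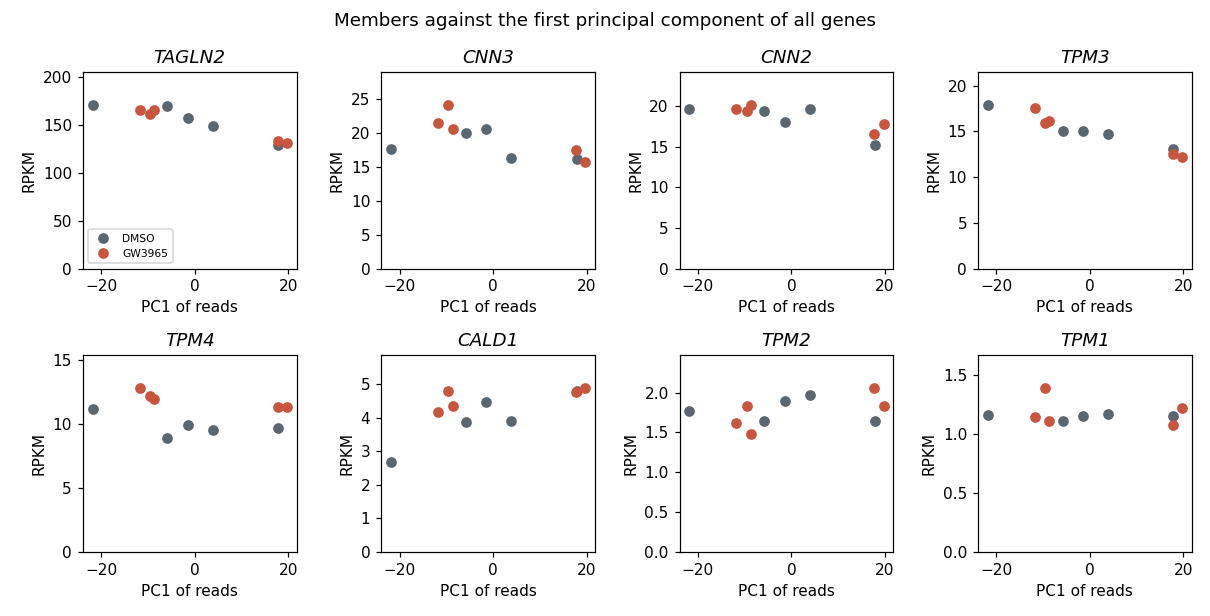
RPKM of the 8 tested members in each library against the first principal component of the reads (no unit), DMSO in gray and GW3965 in red. The 3 libraries on the right are DMSO 1, GW3965 1 and GW3965 2; TAGLN2, TPM3 and CNN2 are lowest there, and only TPM4 shows all GW3965 libraries above all DMSO libraries.

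The genes whose levels moved most like each member over the libraries were different from member to member. TPM3 was closest to PTMAP5 (r = 0.995), PTMA, the gene of prothymosin alpha (r = 0.993), and SNRPD2 (r = 0.989), and TAGLN2 to CAD (r = 0.995), FKBP4 (r = 0.991) and TALDO1 (r = 0.988). CALD1 was closest to PTPN13 (r = 0.990), SH3GLB1 (r = 0.979) and SEC63 (r = 0.977). CNN2 was closest to HPCAL1 (r = 0.976), WNT7B (r = 0.974) and NINJ1 (r = 0.970), and CNN3 to LDHB (r = 0.965), UBA2 (r = 0.959) and GADD45B (r = 0.956). TPM1 was closest to MRPS5 (r = 0.962), PEX11A (r = 0.882) and AL135978.1 (r = 0.879), and TPM2 to CCT6P3 (r = 0.945), AC092171.4 (r = 0.944) and Z98742.2 (r = 0.939). These correlations span 10 libraries that share the split described above, and the genes are the highest of 20402, so they are a description of these libraries.

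Around the members, the actin filament system was described through 67 genes in 7 lists, of which 52 were tested. With limma and with voom 0 of the 52 passed the threshold, against backgrounds of 0.157% and 0.309%. With limma 37 had a fold change above 0 (71.2%, against 51.1% of all tested genes), and their median log2 fold change was 0.043. Scaled by total RPKM, all 52 were above 0, as were 82.5% of all tested genes. The median of the 52 was then 0.18, where the median of all tested genes was 0.14. At an unadjusted p under 0.05 there were 6 (11.5%) with limma, against 6.99% of all tested genes, and 8 with voom, against 6.68%. Of the 52, 5 had groups that did not overlap, against 1.84%.

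The 6 lay in 3 of the lists. In myosin II and its control, 10 of 12 tested genes were above 0 with a median of 0.14, and MYL9, MYL12A and MYL12B, which encode the regulatory light chains whose phosphorylation starts contraction, had log2 fold changes of 0.19, 0.19 and 0.16 (adjusted p = 0.423, 0.492 and 0.552, limma). ROCK2, a kinase acting on this pathway, was the highest of that list at 0.21 (adjusted p = 0.935), and RHOA, which activates ROCK2, the lowest at -0.08 (adjusted p = 0.927). Of the filament end caps, all 5 tested were above 0, from CAPZB at 0.01 to TMOD3 at 0.20 (adjusted p = 0.595, limma). The sign of CAPZB turned in 7 of 23 alternatives. TMOD3 encodes the widespread tropomodulin, which caps the pointed end together with tropomyosin.

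Of 14 tested cross-linkers and adhesion plaque genes, 8 were above 0, from FSCN1 at -0.08 to LIMA1, an actin bundling protein, at 0.45 (95% interval 0.22 to 0.69, adjusted p = 0.206, limma). LIMA1 ran from 6.15 to 8.78 RPKM in DMSO and from 9.16 to 11.4 in GW3965. PALLD, the stress fiber scaffold palladin, was next at 0.37 (95% interval 0.19 to 0.54, adjusted p = 0.158, limma), with 5.97 to 7.18 RPKM in DMSO and 7.95 to 9.94 in GW3965. LIMA1, PALLD, MYL9, MYL12A and TMOD3 were the 5 list genes whose groups did not overlap, and PALLD, MYL9, MYL12A and MYL12B are named after their values were seen.

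The actins ACTB and ACTG1 had log2 fold changes of 0.03 and 0.13, and the muscle actins were under the filter. Of 13 tested genes of severing and monomer binding, 8 were above 0 with a median of 0.019, from CFL1 (cofilin) at -0.06 to TMSB10 (a thymosin) at 0.12. SRF itself had a log2 fold change of -0.02, and in the list of SRF, its coactivators and targets, 4 of 6 tested were above 0, from MKL1 at -0.04 to CYR61 at 0.16.

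Promoter sequence was at hand for 9 of the 10 members, all but TAGLN (RefSeq, GRCh38.p14, 250 bases before to 50 after each listed start, 19 windows in all). The only window of TPM1, chr15:63048239-63048538, lay downstream of the long coding start printed above, so the promoter of that form was not searched. The CArG box, searched by name on both strands, was found in 2 of the 19 windows, 1 of CNN2 and 1 of TPM4, against 1.29% of 35116 windows of all genes. Both stretches are printed 5′ to 3′ with the box in capitals, since 1 belongs to the member with the clearest difference and the other to a member with nearly none.
TPM4 (chr19:16067345-16067394, plus strand): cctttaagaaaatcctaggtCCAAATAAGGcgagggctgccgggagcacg
CNN2 (chr19:1026499-1026548, plus strand): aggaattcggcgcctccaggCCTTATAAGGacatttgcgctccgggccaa
The box of TPM4 ends 164 bases before the start of its window and that of CNN2 ends 80 bases before its own. The other TPM4 windows, chr19:16076245-16076544 and chr19:16076766-16077065, held no CArG box. Values per gene do not show which start the TPM4 reads came from. The GC box (GGGCGG, either strand) was in 14 of the 19 windows, covering all 9 genes, against 45.0% of all windows. CCAAT was in 6, TATAAA in 1 and the TEAD motif GGAATG in 3 of the 19 windows, against 34.6%, 11.5% and 14.0%. The DR4 element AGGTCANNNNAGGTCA, a form bound by LXR with its partner RXR, was in none of the 19 and in 0.0199% of all windows. A match describes the letters in these windows only, and no binding was measured in these libraries.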

How the data were processed

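RNA of PC3 cells was sequenced in 10 libraries, 5 per group, assigned by the sample titles. The authors prepared stranded total RNA libraries with ribosomal depletion, whereas the labels' molecule field names polyA RNA. The deposited table gives RPKM for 62656 genes in each library. The submitters' processing notes name bcl2fastq 2.20.0.422, cutadapt, HISAT2 2.1.0, HTSeq 0.11.2, DESeq2 1.22.2 and the build hg38, while the paper's methods name a mouse genome. All gene identifiers are human. The annotation release and the handling of strand and of reads with several positions are not given in the sources used here.

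Reads were recovered from the RPKM values as whole multiples of the value of 1 read, and 100% of 380271 values above 0 came out whole (tolerance 0.001). A gene with only 1 value above 0 comes out whole by construction, so this share was in part fixed in advance. The recovered totals lay between 30610148 and 39384135 reads in DMSO and between 30429384 and 41636379 in GW3965. The authors' scaling factor of each library equaled its median-of-ratios size factor to within 8.88e-16. The scale of 967 genes was set from GENCODE 29 lengths. No pair of libraries was near-identical (chi-square per degree of freedom 7.47 to 84.4). The labels do not say whether libraries came from separate cultures, so p-values measure the spread between these libraries, which may be technical.

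The test was limma 3.58.1 in R 4.3.3 (eBayes with trend) on log2(RPKM + 0.1) and was two-sided. It covered the 20402 genes averaging 0.5 RPKM or more, and p-values were adjusted over all of these (Benjamini-Hochberg, threshold 0.05). Fold changes are on the log2(RPKM + 0.1) scale, which understates those of low genes. Members under that mean were compared by an exact permutation test over 252 labellings, whose smallest p is 0.00794. A gene list and a sequence that the rules would name are not reported here. Named were all members, the ends of each list, list genes past the threshold and the 3 closest patterns of each tested member. The members, lists and tests were chosen with earlier results of these data known. The fit was tested on simulated data. Alternatives changed the pseudocount, filter, scaling, variance model, covariates and libraries.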

Additional observations from a re-analysis of the deposited data

Results flagged for a closer look

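TPM1 was lowest in DMSO library 3, at 1.11 RPKM against 1.15 to 1.17 in the other 4, so that the gap to the nearest library was 0.738 of the range of the group on the log2(RPKM + 0.1) scale. TMOD3 was highest in GW3965 library 5, at 6.38 RPKM against 5.73 to 5.90, with a gap of 0.725 of the range on the same scale. Both exceed the limit of 0.71 for 5 samples (Dixon's test), and chance alone flags about 1 in 20 groups. There were 44 such groups among the genes named here, so that 2.2 were due by chance and 2 were found.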

How the results depend on the processing

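The count of genes past the threshold, 32, became 21 with no filter on low values, 20 with no trend, 56 with library weights, 83 with the first principal component as a covariate, 63 with voom on the recovered reads, 18 without DMSO 1, GW3965 1 and GW3965 2, and 17 to 38 when any 1 library was left out. With a component computed on the reads as a covariate instead, added after seeing the data, it was 146, and 1 member, TPM4, passed (adjusted p = 0.0419, limma). No member passed under any of the 22 other alternatives. TPM4 came nearest among these with library weights (adjusted p = 0.0576) and the first principal component (0.0665).

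With the replicate number as a block, 16 genes passed and the adjusted p of TPM4 was 0.240. The correlation of same-numbered deviations was 0.149, -0.0488, 0.0386, 0.160 and -0.138 for numbers 1 to 5, and 1 of 5 libraries matched its own number best. With 5 libraries per group and the split among them, this cannot show whether same-numbered samples were prepared together.

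Signs turned only in values that had not passed the threshold. Scaling by total RPKM moved the median of all genes to 0.136, and TPM2, TPM3, TAGLN2, RHOA, CFL1, FSCN1 and MKL1 then stood at 0.11, 0.096, 0.10, 0.058, 0.077, 0.054 and 0.099, each below that shift. With library weights TPM3, TAGLN2, CFL1 and MKL1 stood at 0.042, 0.0093, 0.012 and 0.029, and without the 3 libraries TPM3, TAGLN2 and CFL1 at 0.076, 0.023 and 0.015. ACTB and CAPZB stood at -0.051 and -0.0070 after quantile normalization and at -0.0065 and -0.021 with the first principal component. With any 1 library left out, the ranges were -0.016 to 0.070 for TPM1, -0.077 to 0.037 for TPM2, -0.10 to 0.027 for TPM3, -0.10 to 0.012 for TAGLN2, -0.037 to 0.071 for CNN2, -0.046 to 0.089 for ACTB, -0.042 to 0.058 for CAPZB, -0.015 to 0.32 for ROCK2 and -0.083 to 0.026 for MKL1. The causes were not tested.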
